A study of Mus musculus with 16 samples.

Results

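A set of 39 genes, made up of genes that interferons induce and of the MHC class I genes that present antigen, was followed in the quadriceps of mice that carry an ANT1 transgene and of wild-type mice. The 39 genes were picked by name, with earlier results of these data known, from the 19108 gene symbols in the count files, and all 39 are listed there. They comprise 10 guanylate-binding proteins (GBPs), 6 immunity-related GTPases (IRGs), 13 antiviral effectors, 5 regulators, 4 antigen presentation genes and the chemokine Cxcl10. A filter on low counts kept 38 of them for testing, and Gbp8 was the member that did not pass. The mice were 4 ANT1(Tg)/+ females, 4 ANT1(Tg)/+ males, 4 wild-type females and 4 wild-type males, named Tg and WT here. All 16 were C57BL/6 mice aged 6 months on a regular chow diet, with littermate controls where that could be done, and 1 stranded mRNA library was made from the snap-frozen quadriceps of each. ANT1 is the protein of Slc25a4, the carrier that exchanges ADP and ATP across the inner mitochondrial membrane. The sources used here give neither the promoter that drives the transgene nor the number of transgenic lines.

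Interferons are secreted proteins that cells release when they sense viral nucleic acid, and that T cells and NK cells release on activation. Signals from the type I interferon receptor reach target genes mainly through the interferon-stimulated response element (ISRE), which Irf9 helps to bind, and those from the interferon gamma receptor mainly through the gamma-activated site (GAS). The genes they switch on encode GTPases that attack the membranes around intracellular pathogens, enzymes and sensors that block viral RNA, and the machinery that shows peptides to CD8 T cells on MHC class I. In mice the IRGs and several GBPs respond mainly to interferon gamma, and the Ifit, Oas and Mx genes mainly to type I interferon.

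The promoters of 6 of the members called in the results below are shown for these 2 elements. Each is given as the 250 bases before the annotated start on the strand of the gene, from RefSeq on build GRCm38.p6. Igtp, Irgm2, Tgtp2 and Gbp7 were lower in Tg muscle, and Ifit3 and Cxcl10 were higher. Capitals mark matches on either strand to the ISRE core (GAAA, any 2 bases, GAAA) or to GAS (TTCNNNGAA), motifs that were chosen after the values were seen.
Igtp: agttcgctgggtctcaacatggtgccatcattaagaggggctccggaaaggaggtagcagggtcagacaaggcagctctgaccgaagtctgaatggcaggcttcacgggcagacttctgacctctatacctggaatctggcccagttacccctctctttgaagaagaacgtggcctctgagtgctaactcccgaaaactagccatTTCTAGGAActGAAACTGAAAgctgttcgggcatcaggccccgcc
Irgm2: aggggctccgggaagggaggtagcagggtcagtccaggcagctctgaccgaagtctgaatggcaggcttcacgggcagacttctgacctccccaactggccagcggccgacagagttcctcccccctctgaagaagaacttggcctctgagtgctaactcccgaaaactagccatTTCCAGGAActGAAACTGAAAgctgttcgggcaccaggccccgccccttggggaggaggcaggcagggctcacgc
Tgtp2: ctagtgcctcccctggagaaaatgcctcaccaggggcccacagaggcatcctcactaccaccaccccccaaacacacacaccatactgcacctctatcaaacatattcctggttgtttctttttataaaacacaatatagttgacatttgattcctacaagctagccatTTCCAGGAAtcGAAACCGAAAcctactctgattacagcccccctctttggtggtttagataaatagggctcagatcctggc
Gbp7: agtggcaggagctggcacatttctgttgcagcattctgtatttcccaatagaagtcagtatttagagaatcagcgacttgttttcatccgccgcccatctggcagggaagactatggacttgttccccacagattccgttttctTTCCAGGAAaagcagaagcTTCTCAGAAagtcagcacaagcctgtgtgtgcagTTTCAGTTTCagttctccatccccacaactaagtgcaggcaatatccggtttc
Ifit3: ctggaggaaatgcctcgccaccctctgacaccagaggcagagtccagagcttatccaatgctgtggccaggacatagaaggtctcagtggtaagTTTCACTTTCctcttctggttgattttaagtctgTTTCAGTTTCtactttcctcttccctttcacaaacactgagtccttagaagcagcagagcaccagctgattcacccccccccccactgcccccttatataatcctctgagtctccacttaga
Cxcl10: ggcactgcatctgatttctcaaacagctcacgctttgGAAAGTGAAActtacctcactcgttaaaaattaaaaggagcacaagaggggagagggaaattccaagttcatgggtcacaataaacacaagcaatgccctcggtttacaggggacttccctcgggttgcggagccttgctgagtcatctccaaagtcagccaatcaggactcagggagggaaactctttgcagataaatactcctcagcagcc
The Igtp window is chr11:58199306-58199555 on the plus strand, that of Irgm2 chr11:58214727-58214976 on the plus strand, inside the longer gene that GENCODE annotates, and that of Tgtp2 chr11:49064213-49064462 on the minus strand. In these 3 IRG promoters a GAS match starts 11 bases before an ISRE match, and the matches do not overlap each other in any of the 6 windows. The GAS match starts 45 bases before the start of Igtp, 75 bases before that of Irgm2 and 81 bases before that of Tgtp2. This spacing, taken from the promoters shown, was found in 5 of 32851 promoters (0.0152%), namely those of Igtp, Irgm2, Tgtp1, Tgtp2 and the unnamed gene Gm12185. These are not independent finds. Tgtp1 and Tgtp2 are copies, Gm12185 overlaps Tgtp1 by 6900 bases on the same strand, and the Igtp and Irgm2 windows share long stretches. The share of promoters therefore does not measure how rare the spacing is. The Gbp7 window, chr3:142530086-142530335 on the plus strand, holds GAS matches 106 and 87 bases and an ISRE match 53 bases before the start. The Ifit3 window, chr19:34583279-34583528 on the plus strand, holds ISRE matches at 156 and 122 bases and no GAS match. The Cxcl10 window, chr5:92348890-92349139 on the minus strand, holds 1 ISRE match at 213 bases and no GAS match.

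RefSeq promoters were matched for 28 of the 39 members. At least 1 promoter of 18 of these 28 held the ISRE core, a motif present in 2.98% of all 32851 promoters of this length. GAS was found for 10 of the 28 members and in 7.02% of all promoters. Both motifs were found for Bst2, Gbp5, Gbp7, Igtp, Irgm2, Oas1a, Tgtp1 and Tgtp2, 8 members in all, and in 0.332% of all promoters. Another motif, the core TGATGNAA bound by ATF4 and related factors of the stress response, was found in no promoter of the 28 members and in 3.45% of all. Of the called members whose promoters are not shown, Irf7, lower in Tg, held neither motif and Bst2, also lower, held both. Gbp2, Gbp3, Irgm1, Ifit1, Isg15, Rsad2, Stat2 and B2m, not called and with estimates below 0, held the ISRE core without GAS. Ifit3 and Cxcl10 also held it without GAS. The matches describe letters in these windows, and their relation to the direction of change was not tested. No promoter is shown for Gbp4, Gbp6, Gbp8, Gbp9, Gbp10, Gbp11, Iigp1, Mx1, Mx2, Oas2 or Usp18.

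Total counts were 17435895 to 30680324 per library, so that 3 counts, the limit that a count of 0 allows, stood for 0.101 to 0.166 CPM, the count scaled to the size of its library. Slc25a4 averaged 9755 ± 876 CPM in Tg and 3399 ± 408 CPM in WT (SD, n = 8 each), a log2 difference of 1.53 (SE 0.08, adjusted p = 4.89e-10), and the counts do not tell transgene from endogenous transcripts. All 16 libraries matched their sex labels. Skeletal muscle fibre markers summed to 184710 to 260636 CPM in Tg and to 191287 to 298241 CPM in WT. The bulk tissue also held transcripts of macrophages, endothelial cells, fibroblasts and adipocytes, and in such samples fewer cells of a type and less RNA per cell cannot be told apart. Adipocyte markers (10 genes such as Adipoq and Plin1) summed to 1029.6 to 3823 CPM in Tg and 1067 to 7455 CPM in WT, and the 4 highest libraries were WT female 1 (7455), WT male 1 (7209), WT female 2 (6883) and WT female 3 (4487).

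Per kb of exon, the MHC class I genes were by far the most abundant of the 39. B2m, the invariant light chain of MHC class I, stood at 113 ± 19.8 CPM per kb in Tg and 153 ± 73.45 CPM per kb in WT (SD, n = 8 each). The heavy chains H2-D1 and H2-K1 followed at 44.4 and 32.9 CPM per kb in Tg, and 50.8 and 36.1 in WT. The next levels were those of Ifit3, Bst2, Igtp and Irgm2, between 3.97 and 7.15 CPM per kb in Tg and between 4.51 and 8.48 in WT. Ifit3, which encodes an antiviral protein of the IFIT family, was 4th of the 39 in Tg and 7th in WT, while Gbp10 was 33rd in Tg and 14th in WT. At the low end Mx1 stood at 0.0995 CPM per kb in Tg and 0.211 in WT. Gbp8 was the lowest in both, at 0.0416 CPM per kb in Tg and 0.0572 in WT, with 1 to 8 counts per Tg library and 1 to 9 per WT library.

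Averaged over the sexes, most members had lower estimates in Tg muscle than in WT muscle, and 2 had higher ones. At an adjusted p under 0.05 (edgeR's quasi-likelihood test, Benjamini-Hochberg over 13666 genes), 12 of 38 members changed (31.6%), where 30.4% of all tested genes did. Of the members 10 fell (26.3%) and 2 rose (5.26%), where 13.3% of all tested genes fell and 17.2% rose. The genes that fell were Gbp6, Gbp7, Gbp10, Igtp, Irgm2, Iigp1, Tgtp2, Irf7, Usp18 and Bst2, and those that rose were Ifit3 and Cxcl10. Leaving out single libraries gave 6 decreases without Tg female 2 or WT male 4 and 16 without WT female 4, and 2 increases in all 16 cases. Over all tested genes the same omissions gave 1611 to 2028 decreases and 2023 to 2537 increases. The calls of Gbp6, Gbp7, Gbp10, Igtp, Irgm2, Iigp1, Ifit3 and Cxcl10 held in all 16 cases. The estimated difference was below 0 for 36 of 38 members (94.7%) and for 51.7% of all tested genes. The median log2 difference was -0.35 over the members and -0.01 over all tested genes. By role, the median was -0.70 for the IRGs, -0.41 for the GBPs, -0.32 for the antiviral effectors, -0.25 for antigen presentation and -0.18 for the regulators. Every Tg library was below every WT library for 4 members (10.5%), namely Gbp6, Gbp7, Gbp10 and Igtp, where 2.69% of all tested genes showed this. No member had every Tg library above every WT library, where 5.23% of all tested genes did.

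Of the GBPs, large GTPases that coat and break up the vacuoles of intracellular pathogens, 3 of 9 tested members fell. Gbp6 (chr5:105270702-105293698, minus strand, mm10) had 3.12, 4.37, 5.16 and 4.25 CPM in Tg females and 5.32, 5.25, 5.51 and 2.75 CPM in Tg males. WT females had 12.2, 27.1, 11.8 and 7.11 CPM and WT males 21.6, 20.9, 16.2 and 14.8 CPM. All 8 Tg libraries were below all 8 WT libraries, and WT female 4 came closest to the Tg range. The mean was 4.47 ± 1.05 CPM in Tg and 16.5 ± 6.42 CPM in WT (SD, n = 8 each), and Gbp6 fell by 1.87 on the log2 scale (SE 0.24, adjusted p = 3.74e-05).

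Gbp10 (chr5:105215699-105239533, minus strand), a close relative of Gbp6 in the same cluster, showed the largest decrease of the 38. Its CPM values were 0.94, 1.35, 1.79 and 1.11 in Tg females and 1.52, 1.14, 1.29 and 0.54 in Tg males. WT females had 4.13, 16.6, 3.47 and 2.65 CPM and WT males 10.2, 13.9, 10.3 and 8.21 CPM. Again the groups did not overlap, and within WT females library 2 stood far above the other 3. The mean was 1.21 ± 0.377 CPM in Tg and 8.67 ± 5.05 CPM in WT, and Gbp10 fell by 2.78 on the log2 scale (SE 0.37, adjusted p = 5.53e-05). Of the 75-base windows of Gbp10 transcripts 62.2% are shared with Gbp6, and 51.7% of those of Gbp6 are shared with Gbp10. Counting may thus have split reads between them. The share with any gene is 75.5% for Gbp10 and 86.0% for Gbp6. Gm43302, which is not in the count files, overlaps 1792 exon bases of Gbp10 and 1726 of Gbp6 on the same strand. With the counts of Gbp6 and Gbp10 summed, a setting chosen after the data were seen, the log2 difference was -2.12 (adjusted p = 5.59e-05). The sum does not settle the part of Gm43302.

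**Figure D1:**
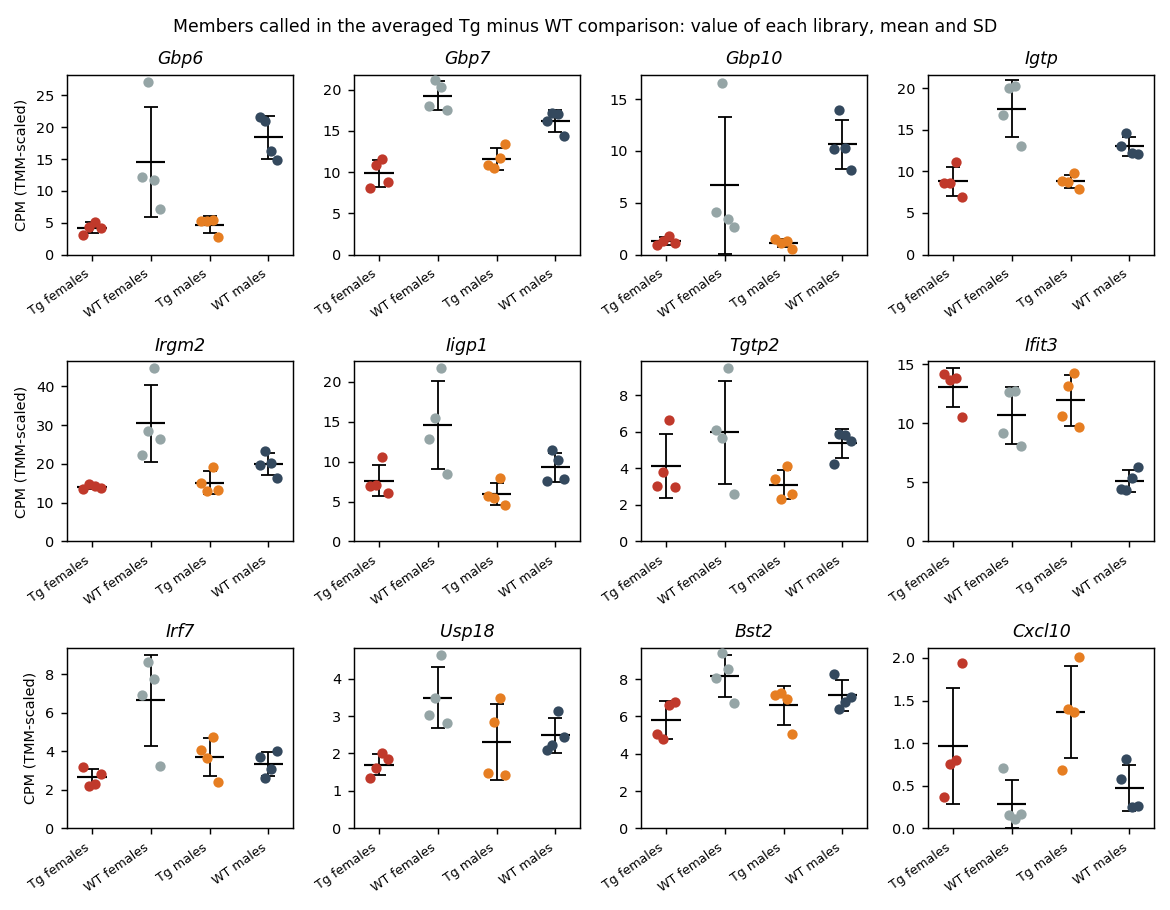
CPM of the 12 members called in the averaged comparison, 1 panel per gene, with 1 point per library and the mean ± SD of each group of 4; Tg females stand left of WT females and Tg males left of WT males. In the panels of Gbp6, Gbp7, Gbp10 and Igtp every Tg library lies below every WT library, and Ifit3 and Cxcl10 are the panels with the higher Tg means.

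Gbp7 (chr3:142530342-142550149, plus strand) lies in the other GBP cluster and had the smallest adjusted p of the members. Tg females had 8.10, 10.9, 11.6 and 8.78 CPM and Tg males 10.8, 10.5, 11.7 and 13.5 CPM. WT females had 18.0, 21.2, 20.3 and 17.6 CPM and WT males 16.2, 17.2, 17.1 and 14.4 CPM. The groups did not overlap, the gap being narrowest between Tg male 4 and WT male 4. Gbp7 averaged 10.7 ± 1.69 CPM in Tg and 17.7 ± 2.17 CPM in WT, and fell by 0.72 on the log2 scale (SE 0.08, adjusted p = 8.59e-06). The other GBPs did not pass the threshold. Their log2 differences were -0.37 for Gbp2, -0.35 for Gbp3, -0.41 for Gbp4, -0.23 for Gbp5 and -0.26 for Gbp9, with adjusted p of 0.106 to 0.237. Gbp11, annotated as a polymorphic pseudogene, differed by -1.15 (SE 0.63, adjusted p = 0.192) and varied between 0.0982 and 0.577 CPM in Tg and 0.0377 and 2.34 CPM in WT.

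Of the IRGs, small GTPases that load onto or guard against loading onto vacuole membranes, 4 of 6 fell. Igtp (Irgm3; chr11:58199556-58207591, plus strand), a regulatory IRG found on the endoplasmic reticulum and lipid droplets, had 8.54, 8.58, 11.1 and 6.97 CPM in Tg females and 8.86, 8.68, 9.76 and 7.91 CPM in Tg males. WT females had 16.7, 20.0, 20.3 and 13.1 CPM and WT males 13.1, 14.6, 12.2 and 12.1 CPM. The highest Tg library was below the lowest WT library. Igtp averaged 8.80 ± 1.22 CPM in Tg and 15.3 ± 3.37 CPM in WT, and fell by 0.78 on the log2 scale (SE 0.10, adjusted p = 3.64e-05).

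Irgm2 (chr11:58199618-58222782, plus strand), another regulatory IRG, had 13.5, 14.8, 14.2 and 13.8 CPM in Tg females and 15.05, 12.998, 19.3 and 13.3 CPM in Tg males. WT females had 22.3, 28.4, 44.8 and 26.4 CPM and WT males 19.8, 23.3, 20.2 and 16.5 CPM. Tg male 3 lay above WT male 4, and the other 7 Tg libraries were below every WT library. Irgm2 averaged 14.6 ± 2.03 CPM in Tg and 25.2 ± 8.78 CPM in WT, and fell by 0.75 on the log2 scale (SE 0.13, adjusted p = 0.000388). Igtp and Irgm2 share 162 exon bases on the same strand in the GENCODE M21 annotation, so their counts are not fully separate.

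Iigp1 (chr18:60376027-60392634, plus strand), an effector IRG, had 6.94, 7.03, 10.5 and 6.06 CPM in Tg females and 5.75, 5.50, 7.94 and 4.62 CPM in Tg males. WT females had 12.8, 15.5, 21.7 and 8.44 CPM and WT males 7.62, 11.4, 10.2 and 7.87 CPM. Tg female 3 and Tg male 3 reached into the WT range. Iigp1 fell by 0.78 on the log2 scale (SE 0.18, adjusted p = 0.00399), with means of 6.80 ± 1.83 CPM in Tg and 11.9 ± 4.77 CPM in WT. Iigp1 differed by -0.45 (adjusted p = 0.110) without the 4 adipocyte-rich libraries.

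Tgtp2, an effector IRG named for its expression in T cells, ranged from 2.33 to 6.67 CPM in Tg and from 2.59 to 9.499 CPM in WT, and the groups overlapped. Tgtp2 fell by 0.65 on the log2 scale (SE 0.23, adjusted p = 0.0455), whereas its copy Tgtp1 differed by -0.66 (SE 0.25, adjusted p = 0.0592). The call rested on single libraries: leaving out any of 12 of the 16 ended it, with adjusted p up to 0.103, and it held only without Tg female 3, Tg male 3, WT female 4 or WT male 1. Of the 75-base windows of Tgtp2 transcripts 85.2% are shared with Tgtp1, and the 2 summed had an adjusted p of 0.0516. Tgtp2 without the 4 adipocyte-rich libraries differed by -0.12 (adjusted p = 0.780). Irgm1, the third regulatory IRG, differed by -0.17 (SE 0.08, adjusted p = 0.148) and ranged from 12.6 to 17.4 CPM in Tg and from 13.6 to 23.6 CPM in WT.

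The 13 antiviral effectors split, with Ifit3 higher, Bst2 lower and 11 not past the threshold. Ifit3 (chr19:34583531-34588731, plus strand) binds other IFIT proteins that recognise foreign RNA ends. It had 14.1, 13.6, 13.8 and 10.6 CPM in Tg females and 10.6, 13.1, 14.2 and 9.67 CPM in Tg males. WT females had 9.19, 12.7, 12.7 and 8.05 CPM and WT males 4.41, 4.34, 5.33 and 6.33 CPM. Tg and WT females overlapped, whereas each Tg male was above each WT male. Ifit3 averaged 12.5 ± 1.86 CPM in Tg and 7.87 ± 3.41 CPM in WT and rose 1.69-fold (log2 0.76, SE 0.12, adjusted p = 0.000218). Its neighbour and near copy Ifit3b, with which 41.1% of its 75-base windows are shared, rose by 0.60 on the log2 scale (SE 0.11, adjusted p = 0.00075), and the 2 genes summed rose by 0.67 (adjusted p = 0.000277).

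The other IFITs did not pass the threshold. Ifit1, which binds RNA that lacks the host cap, had a log2 difference of -0.51 (SE 0.22, adjusted p = 0.0899) and ranged from 1.33 to 3.19 CPM in Tg and from 1.56 to 5.98 CPM in WT. Ifit2 differed by -0.47 (SE 0.19, adjusted p = 0.0784), with 2.43 to 5.51 CPM in Tg and 2.98 to 8.17 CPM in WT. Both had higher WT than Tg means, in the opposite direction to Ifit3.

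Bst2 (tetherin), which holds budding virions at the cell surface, ranged from 4.77 to 7.28 CPM in Tg and from 6.38 to 9.42 CPM in WT. The groups overlapped, and 3 Tg libraries were below every WT library. Bst2 fell by 0.30 on the log2 scale (SE 0.11, adjusted p = 0.0440), with means of 6.20 ± 1.04 CPM in Tg and 7.66 ± 1.07 CPM in WT. The call was lost without any of 11 of the 16 libraries and held only without Tg female 3, Tg female 4, Tg male 2, WT female 4 or WT male 2. With the 4 adipocyte-rich libraries left out the difference was -0.14 (adjusted p = 0.514).

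The oligoadenylate synthetases and their relatives, which sense double-stranded RNA, did not pass. Log2 differences were -0.32 for Oas1a, -0.22 for Oas2, -0.34 for Oasl1 and -0.43 for Oasl2, with adjusted p of 0.113 to 0.479. Of the 75-base windows of Oas1a transcripts 47.6% are shared with Oas1g, so its counts are uncertain. Mx1, a dynamin-like GTPase for which C57BL/6 mice carry a defective allele, differed by -0.94 (SE 0.43, adjusted p = 0.117), and Mx2, annotated as a polymorphic pseudogene, by -0.35. Isg15, a ubiquitin-like modifier, differed by -0.19, Ifi44 by -0.11 and Rsad2 (viperin), an enzyme that makes a chain-terminating nucleotide, by -0.07. Mx1 and Mx2 stayed under 3 CPM in all 16 libraries.

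Among the regulators, Irf7 and Usp18 fell and Stat2, Irf1 and Irf9 did not pass. Irf7 (chr7:141262706-141266481, minus strand), the transcription factor that amplifies type I interferon, had 3.20, 2.21, 2.32 and 2.84 CPM in Tg females and 4.09, 3.64, 4.75 and 2.41 CPM in Tg males. WT females had 6.94, 8.64, 7.74 and 3.25 CPM and WT males 3.70, 2.62, 3.06 and 4.03 CPM. WT females 1 to 3 stood above every other library, and the remaining WT libraries lay among the Tg ones. Irf7 fell by 0.59 on the log2 scale (SE 0.19, adjusted p = 0.0254), with means of 3.18 ± 0.918 CPM in Tg and 4.998 ± 2.38 CPM in WT. The adjusted p rose above 0.05 without Tg female 2, Tg female 3 or WT male 4, to 0.0561 at most. Without the 4 adipocyte-rich libraries, which include those 3 WT females, the difference was -0.07 (adjusted p = 0.847).

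Usp18, the protease that removes Isg15 from proteins and damps the type I interferon receptor, had 1.34, 1.61, 2.00 and 1.86 CPM in Tg females and 1.48, 2.84, 3.49 and 1.42 CPM in Tg males. WT females had 3.02, 3.49, 4.64 and 2.81 CPM and WT males 2.09, 2.24, 3.14 and 2.45 CPM. Of the Tg libraries 6 were below every WT library, and Tg males 2 and 3 were inside the WT range. Usp18 fell by 0.57 on the log2 scale (SE 0.19, adjusted p = 0.0348), with means of 2.01 ± 0.769 CPM in Tg and 2.99 ± 0.819 CPM in WT. The call was lost without Tg female 1, Tg female 2, Tg male 1, Tg male 4, WT female 3, WT male 3 or WT male 4, and without the 4 adipocyte-rich libraries (-0.47, adjusted p = 0.229). Log2 differences were -0.18 for Stat2, -0.12 for Irf1, a main factor downstream of interferon gamma, and -0.14 for Irf9, with adjusted p of 0.275 to 0.617. Exons of Irf7 overlap those of Phrf1 by 45 bases, and exons of Irf9 those of Rnf31 by 123 bases, so reads there may have been counted to either gene.

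None of the 4 antigen presentation genes passed the threshold with edgeR in the averaged comparison. There none of them had an unadjusted p under 0.05 or was called by DESeq2. In females Tap1 had an unadjusted p of 0.028 with edgeR (log2 -0.62, adjusted p = 0.106). B2m had 75.1, 86.8, 95.2 and 104.6 CPM in Tg females and 114, 105, 120 and 74.3 CPM in Tg males. WT females had 189, 218, 138 and 61.6 CPM and WT males 201, 72.6, 88.9 and 85.3 CPM. The highest B2m values belonged to WT female 2, WT male 1, WT female 1 and WT female 3, which are the 4 adipocyte-rich libraries, and the lowest to WT female 4 and WT male 2. B2m averaged 96.9 ± 17.0 CPM in Tg and 132 ± 63.2 CPM in WT, a log2 difference of -0.43 (SE 0.26, adjusted p = 0.234). H2-D1 ranged from 83.3 to 154 CPM in Tg and from 66.2 to 214 CPM in WT (log2 -0.20, adjusted p = 0.568), and H2-K1 from 72.8 to 128 CPM in Tg and from 55.3 to 161 CPM in WT (log2 -0.14, adjusted p = 0.652). Tap1, a subunit of the transporter that brings peptides to MHC class I, differed by -0.30 (SE 0.18, adjusted p = 0.225), and 212 of its exon bases overlap Psmb9.

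Cxcl10, a chemokine that attracts activated T cells through CXCR3, was the other member to rise. It had 0.363, 0.753, 0.807 and 1.94 CPM in Tg females and 0.687, 1.40, 1.37 and 2.01 CPM in Tg males. WT females had 0.705, 0.156, 0.107 and 0.166 CPM and WT males 0.579, 0.810, 0.252 and 0.264 CPM. Of the Tg libraries 4 were above every WT library, and the groups overlapped. Cxcl10 averaged 1.17 ± 0.607 CPM in Tg and 0.380 ± 0.275 CPM in WT and rose 2.96-fold (log2 1.56, SE 0.42, adjusted p = 0.00978). The counts behind it were few, at 10 to 47 per Tg library and 2 to 21 per WT library, with sums of 224 in Tg and 72 in WT. Cxcl10 (chr5:92346638-92348889, minus strand) lies inside Art3 on the other strand with 133 shared exon bases, and Art3, at 109 ± 22.5 CPM in Tg and 138 ± 21.7 CPM in WT, fell by 0.33 (adjusted p = 0.0185).

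The set of calls changed when the 4 adipocyte-rich libraries were left out, which leaves 12 libraries and WT female 4 as the only WT female, taken to vary like the others. Calls then were 5 lower (13.2%; 13% of all tested genes) and 5 higher (13.2%; 11.3% of all tested genes), shares close to those of all genes. Gbp6 (-1.33), Gbp10 (-2.15), Gbp7 (-0.68), Igtp (-0.59) and Irgm2 (-0.67) remained lower, and Ifit3 (0.90) and Cxcl10 (2.05) remained higher on the log2 scale. Iigp1, Tgtp2, Irf7, Usp18 and Bst2 were no longer called. Irf1 (0.43), H2-K1 (0.50) and H2-D1 (0.52) became called as higher in Tg. For these 3 genes WT female 4 had the lowest value of all 16 libraries, at 5.90, 55.3 and 66.2 CPM. Their estimates thus lean on that 1 library. The sign changed for 14 of 38 members, and the median log2 difference was -0.05. Adipocyte markers themselves had a median log2 difference of -0.74 over 10 genes, none of them called. Macrophage markers had a median of -0.55 over 12 genes, of which Mpeg1 was called lower (-0.82, adjusted p = 0.0271), and the sums were 54.3 to 278 CPM in Tg and 98.1 to 307 CPM in WT. Of the 8 neutrophil markers 2 were tested, with a median of 1.23, and S100a8 was called higher at 0.575 ± 0.354 CPM in Tg and 0.126 ± 0.0999 CPM in WT (2.16, adjusted p = 0.000413). Of the 10 fibre markers, the myosin heavy chain Myh4 (-0.53) and the troponin Tnnt3 (-0.33) were called lower and the myosin heavy chain Myh1 (1.05) higher. The part of these cell types in the results of Iigp1, Tgtp2, Irf7, Usp18, Bst2 and the MHC class I genes was not tested.

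**Figure D2:**
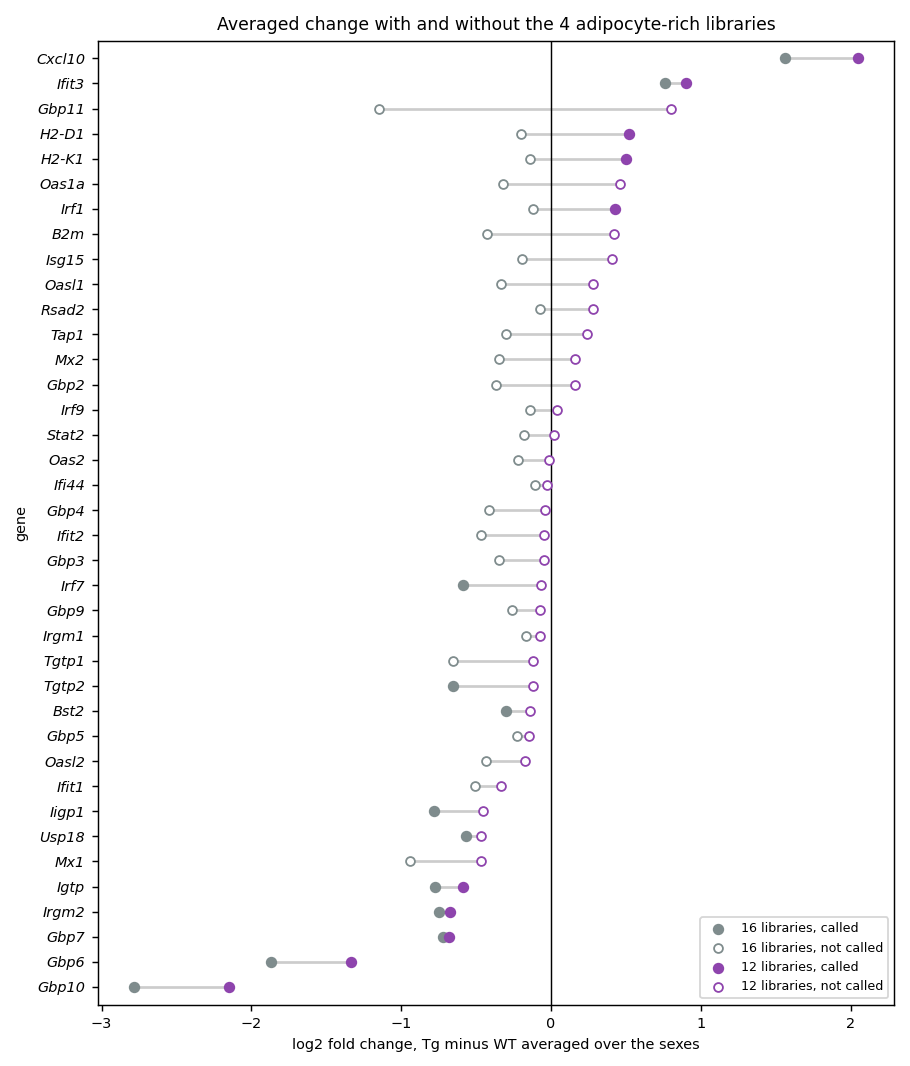
Log2 difference (x axis, Tg minus WT averaged over the sexes) of the 38 tested members (y axis), in grey with all 16 libraries and in purple with the 12 that remain without the 4 adipocyte-rich ones; filled points passed an adjusted p of 0.05. Gbp6, Gbp10, Gbp7, Igtp and Irgm2 are filled and below 0 in both, while H2-K1, H2-D1, B2m and Tap1 lie below 0 with 16 libraries and above 0 with 12.

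Tg females were compared with WT females in the same fit, with the spread estimated from all 16 libraries. In females, 12 of 38 members fell (31.6%; 7.57% of all tested genes) and none rose (10.1% of all tested genes). Besides Gbp6, Gbp7, Gbp10, Igtp, Irgm2, Iigp1, Irf7, Usp18 and Bst2, they were Ifit2, Oasl2 and Stat2. Irf7 averaged 2.64 CPM in Tg females and 6.64 CPM in WT females (log2 -1.33, SE 0.27, adjusted p = 0.00274), and Usp18 averaged 1.70 CPM in Tg females and 3.49 CPM in WT females (log2 -1.03, adjusted p = 0.0166). Oasl2 averaged 3.56 CPM in Tg females and 7.43 CPM in WT females (log2 -1.06, SE 0.28, adjusted p = 0.0159). The groups of 4 did not overlap for 10 members lower in Tg females (26.3%; 7.22% of all tested genes), namely Gbp6, Gbp7, Gbp10, Igtp, Irgm2, Irf7, Mx1, Oas2, Oasl2 and Usp18. The median log2 difference was -0.58 over the members and -0.03 over all tested genes. Only Cxcl10 had an unadjusted p under 0.05 in the direction of an increase in females (log2 1.60, adjusted p = 0.0828), and DESeq2 called it (1.68, adjusted p = 0.0479).

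The female counts moved with single libraries. They were 7 lower without Tg female 1 or Tg female 2, 6 without WT female 3, and 22 without WT female 4, the lowest of the WT females for most members. The count of all tested genes lower in females moved as well, from 1034 to between 674 and 1463. Ifit2 lost its call without any of 13 of the 16 libraries, Stat2 without any of 11, Bst2 without any of 5, Iigp1 without Tg female 1, 2 or 4 or WT female 3, Oasl2 without Tg female 2 or WT female 3, and Usp18 without Tg female 1 or WT female 3. Without the 4 adipocyte-rich libraries Gbp7 and Irgm2 were the 2 members still called lower in females (5.26%; 4.87% of all tested genes), and the median was 0.08. Gbp6 then differed by -0.78 (adjusted p = 0.195) and Gbp10 by -1.05 (adjusted p = 0.182) against the single WT female left. Macrophage markers summed to 54.3 to 149 CPM in Tg females and 98.1 to 307 CPM in WT females, and adipocyte markers to 2646 to 3763 CPM in Tg females and 2485 to 7455 CPM in WT females. The 12 macrophage genes had a median log2 difference of -1.05 in females, with 2 called lower and none at 0 in all libraries, and 0.03 in males. Their part in the female results was not tested.

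In males, 4 of 38 members fell (10.5%; 8.39% of all tested genes) and 1 rose (2.63%; 9.85% of all tested genes). Gbp10 averaged 1.12 CPM in Tg males and 10.6 CPM in WT males (log2 -3.22, SE 0.53, adjusted p = 0.000689). Gbp6 averaged 4.71 CPM in Tg males and 18.4 CPM in WT males (log2 -1.96, SE 0.34, adjusted p = 0.000981). Gbp7 differed by -0.48 (adjusted p = 0.00992) and Igtp by -0.56 (adjusted p = 0.0143). Ifit3 averaged 11.9 CPM in Tg males and 5.10 CPM in WT males (log2 1.22, SE 0.18, adjusted p = 0.000163). Without the 4 adipocyte-rich libraries, of which WT male 1 is the only male, these 5 calls held, and Iigp1 (-0.74, adjusted p = 0.0303) and Tgtp2 (-0.89, adjusted p = 0.0367) were added, which made 6 lower (15.8%; 10.5% of all tested genes) and 1 higher (2.63%; 10.2% of all tested genes). The groups of 4 did not overlap for 5 members lower in Tg males (13.2%; 11.7% of all tested genes), the 4 called and Tgtp2, and for 1 higher, Ifit3 (2.63%; 14% of all tested genes). Macrophage markers summed to 114 to 278 CPM in Tg males and 110 to 219 CPM in WT males, and adipocyte markers to 1029.6 to 3823 CPM in Tg males and 1067 to 7209 CPM in WT males.

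**Figure D3:**
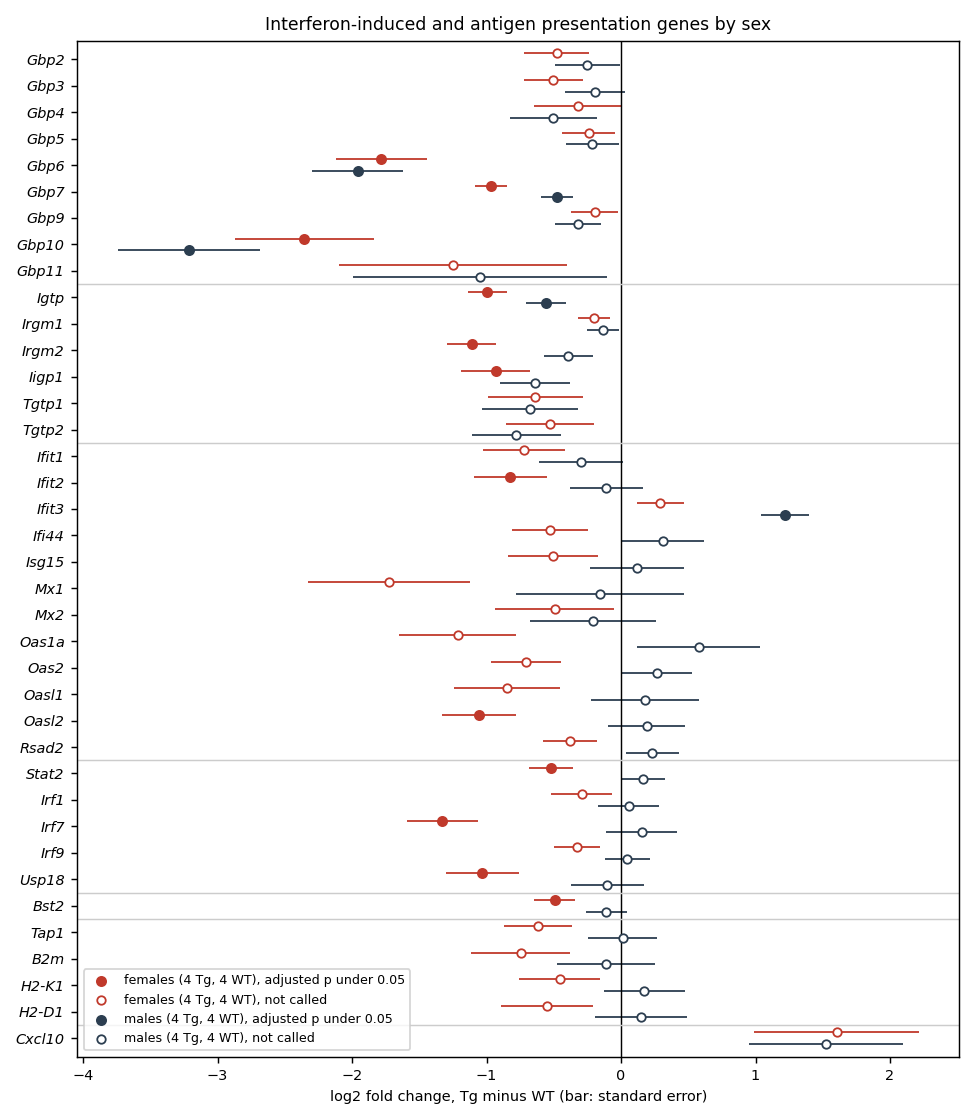
Log2 difference (x axis, Tg minus WT) of the 38 tested members (y axis, grouped by role, with Bst2 on a line of its own) in females (red) and in males (dark), with bars for the SE; filled points passed an adjusted p of 0.05. GBPs and IRGs lie below 0 in both sexes, whereas most antiviral effectors, regulators and antigen presentation genes lie below 0 in females and near or above 0 in males.

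By role, the medians of the GTPases were below 0 in both sexes, those of antiviral effectors, regulators and antigen presentation genes were below 0 in females and above 0 in males, and Cxcl10 was above 0 in both (1.60 in females, 1.52 in males). The GBPs had a median log2 difference of -0.50 in females and -0.48 in males, and the IRGs -0.78 in females and -0.60 in males. Antiviral effectors had -0.70 in females and 0.18 in males, regulators -0.52 in females and 0.06 in males, and antigen presentation genes -0.58 in females and 0.08 in males. The test of the difference itself, the male minus the female genotype effect, called none of the 38 members with edgeR (0.00732% of all tested genes were called, 1 gene). At an unadjusted p under 0.05 there were 10 members, namely Gbp7, Irgm2, Ifit3, Oas1a, Oas2, Oasl2, Rsad2, Stat2, Irf7 and Usp18. All 10 had a more positive effect in males. The share of all tested genes at this unadjusted threshold is not given, so no sex difference of the set is read from these 10 members. DESeq2 called 1 of them, Irf7 (1.45, adjusted p = 0.0315), for which edgeR gave 1.48 (SE 0.37, adjusted p = 0.230). The estimate was above 0 for 31 of 38 members and for 7455 of 13666 genes, with medians of 0.46 and 0.02. The median over the members was -0.17 without the 4 adipocyte-rich libraries.

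Between the sexes, averaged over the genotypes, 2 of 38 members were called (5.26%; 4.43% of all tested genes). Both were lower in males (2% of all tested genes) and none was higher (2.42% of all tested genes), and none had an unadjusted p under 0.05 in that direction with edgeR or was called higher with DESeq2. Ifit3 averaged 8.51 CPM in males and 11.8 CPM in females (log2 -0.59, adjusted p = 0.00974). Ifi44 averaged 0.713 CPM in males and 1.27 CPM in females (log2 -0.80, adjusted p = 0.0380), a call that was lost without any of 10 of the 16 libraries. Leaving out WT female 4 gave 4 members lower in males. All 13 antiviral effectors and all 6 IRGs had a lower estimate in males, and the estimate was below 0 for 30 of 38 members (78.9%; 52.8% of all tested genes). Neither gene was called without the 4 adipocyte-rich libraries, at -0.36 for Ifit3 and -0.60 for Ifi44.

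The members varied more among WT than among Tg libraries. The SD of log2 CPM within groups was larger in WT for 33 of 38 members (86.8%) and for 69.8% of all tested genes. Its median was 0.33 in Tg and 0.46 in WT over the members, and 0.17 in Tg and 0.21 in WT over all tested genes. The largest excess in WT was that of Gbp11 (0.68 in Tg, 1.62 in WT), which had 1 to 45 counts per WT library. B2m (0.26 in Tg, 0.74 in WT) and H2-D1 (0.30 in Tg, 0.67 in WT) followed. Usp18, Oasl1, Gbp7, Bst2 and Oasl2 varied more in Tg. Tg male 3 had the highest Tg value for 21 members and Tg female 3 for 10, while WT female 3 had the highest WT value for 25 members and WT female 2 for 11.

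**Figure D4:**
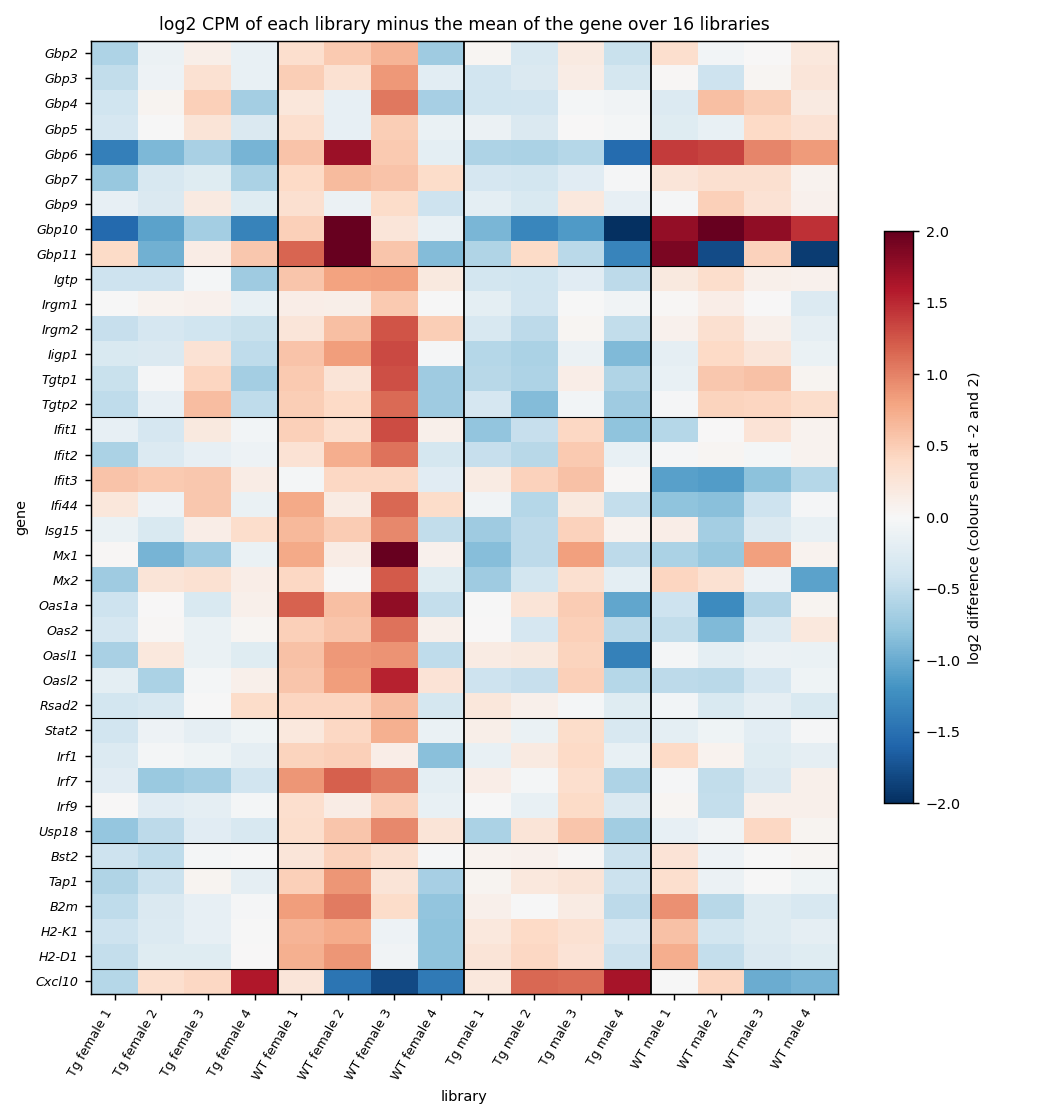
Log2 CPM of the 38 tested members (rows, grouped by role) in each of the 16 libraries (columns), minus the mean of the gene over the 16, with Tg females left of WT females and Tg males left of WT males; red is above and blue below that mean. WT female 3 is the highest WT library for 25 members, and Tg male 3 the highest Tg library for 21.

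Across the 16 libraries, centred on their group means, the levels of most members moved together. The median Pearson r was 0.46 over 703 pairs, of which 638 were positive, a description over libraries that share sequencing depth and tissue makeup. It was 0.94 within antigen presentation, 0.76 within the IRGs, 0.55 within the antiviral effectors and 0.37 within the GBPs. Cxcl10 stood apart, with median r between -0.14 and 0.23 to the other roles. H2-K1 and H2-D1 had r = 0.99, Gbp6 and Gbp10 0.94, and Tgtp1 and Tgtp2 0.94, and the last 2 pairs share sequence. These values lean on WT female 4. Without it the median r of the members fell from 0.52 to 0.12 against Irf1 and from 0.54 to 0.30 against Irf7, the lowest of the single omissions. No median r over other genes is given for comparison.

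Against Irf1 and Irf7, 73 pairs were tested with permutations within groups, and 2 were called on r. Irf1 and Tap1 had r = 0.86 and rho = 0.73 (n = 16, permutation p = 0.001 and 0.0044, adjusted p = 0.0365 and 0.0825), and r = 0.66 without WT female 2 and WT female 4. Irf7 and Irf9, a partner of Stat2, had r = 0.79 and rho = 0.74 (n = 16, permutation p = 0.0009 and 0.00334, adjusted p = 0.0365 and 0.0825), and r = 0.85 without WT female 2 and WT female 3. For Irf7 the 2 libraries left out had the levels farthest from its median before centring. WT female 4, the library farthest from its group mean (3.25 CPM, the other WT females 6.94 to 8.64), was kept. No rho passed in this family. By permutation p, which does not follow the order of r, the next for Irf1 were H2-K1 (r = 0.86), Oasl1 (r = 0.68) and H2-D1 (r = 0.84), each at an adjusted permutation p of 0.0703, as was B2m (r = 0.86). The next by permutation p for Irf7 were Oas1a (r = 0.79, adjusted permutation p = 0.107), Bst2 (r = 0.66) and B2m (r = 0.73), the last 2 at 0.112. Both calls depended on the libraries used: 1 or both were lost without any library other than Tg female 4, WT female 2 or WT male 3, and both without the 4 adipocyte-rich libraries.

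Against cell type markers, 152 pairs were tested, 14 were called on r and 3 on rho. The adipocyte markers gave 7 calls, among them H2-D1 (r = 0.92, rho = 0.93, n = 16, permutation p = 0.0001 and 0.0006, adjusted p = 0.0152 and 0.0304), with r = 0.94 without Tg male 4 and WT male 2. H2-K1 had r = 0.89 and rho = 0.94 (adjusted permutation p = 0.0198 and 0.0304), B2m r = 0.88 and rho = 0.86 (0.0198 and 0.0608), and Gbp11 r = 0.78 and rho = 0.72 (0.0331 and 0.105). Gbp11 had few counts, at 1 to 45 per library. Leaving out the 2 farthest libraries gave 0.91 for H2-K1, 0.91 for B2m and 0.78 for Gbp11. These 2, Tg male 4 and WT male 2, had the lowest adipocyte sums before centring. WT male 1, at 7209 CPM against 1067 to 1598 CPM in the other WT males, was kept. The MHC class I heavy chains and light chain thus followed the adipocyte markers across libraries of the same group, whereas Gbp7, the member with the smallest adjusted p between the genotypes, was not called against any list.

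The macrophage markers gave 6 calls. Oas2 had r = 0.79 and rho = 0.83 (n = 16, permutation p = 0.00073 and 0.00041, adjusted p = 0.0277 and 0.0304), and r = 0.76 without Tg female 1 and WT female 3. Usp18 (r = 0.73, rho = 0.79), Oas1a (r = 0.77, rho = 0.72) and Ifit2 (r = 0.79, rho = 0.76) each had an adjusted permutation p of 0.0465 for r and of 0.0608 to 0.105 for rho. The endothelial markers gave 1 call, that of Gbp11 with its few counts (r = 0.70, adjusted permutation p = 0.0465). Next in order of permutation p were Tap1 (r = 0.73), Gbp6 (r = 0.68) and H2-D1 (r = 0.77), while the highest r was that of H2-K1 (r = 0.79, adjusted permutation p = 0.135). For T and NK cells only Cd247 was expressed enough to be used, and no member was called, those with the smallest permutation p being Ifit1 (r = 0.59), Mx1 (r = 0.65), Gbp9 (r = 0.66) and Gbp4 (r = 0.61). The number of calls fell without almost any single library: from 14 to between 0 and 7 in all, the exception being Tg female 3 (12), and to 0 without Tg male 4, without WT male 1, or without the 4 adipocyte-rich libraries.

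**Figure D5:**
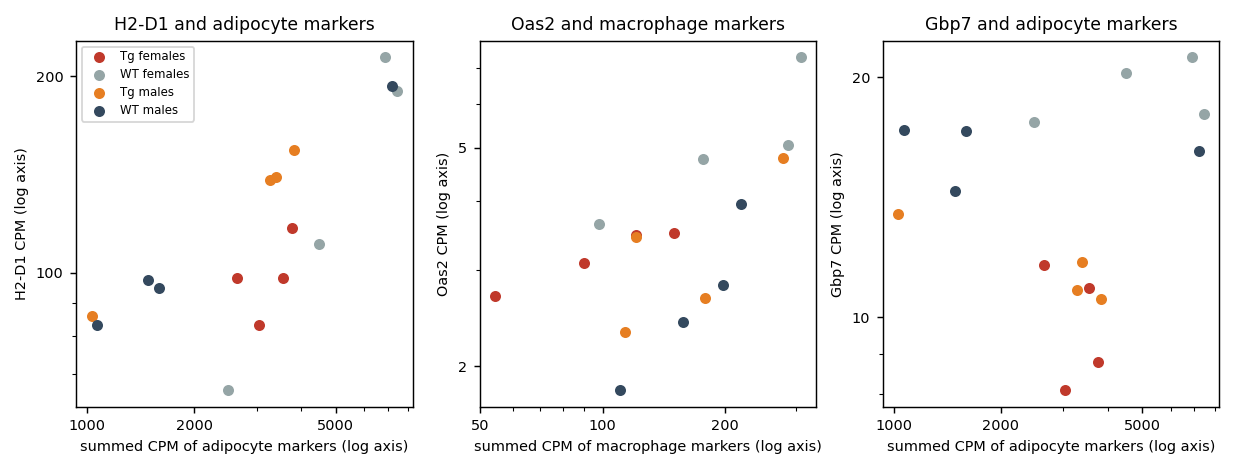
CPM of H2-D1 and Gbp7 against the summed CPM of the adipocyte markers, and of Oas2 against that of the macrophage markers, on log axes, with 1 point per library and the 4 groups in different colours. H2-D1 is highest in the 3 libraries with the most adipocyte transcript, and Gbp7 is lower in each of the 8 Tg than in any of the 8 WT libraries. No Tg library lies above an adipocyte sum of 3823 CPM, where the 4 adipocyte-rich WT libraries lie.

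Of 106 other tested genes of the pathway, in 7 lists, 16 fell (15.1%; 13.3% of all tested genes) in the averaged comparison at the same threshold. There 6 rose (5.66%; 17.2% of all tested genes), and the share that fell was near that of all genes. By sex the shares differed. In females 17.9% fell (7.57% of all tested genes) and 1.89% rose (10.1% of all tested genes). In males 2.83% fell (8.39% of all tested genes) and 4.72% rose (9.85% of all tested genes). Of the 12 ligands listed only 5 are in the count files, and 2 of these were expressed enough to be tested. Il12a, a subunit of the interferon gamma inducer IL-12, fell (-0.70, adjusted p = 0.00878). Of 14 receptor and JAK-STAT genes 2 fell and 1 rose. Jak2, a kinase of the interferon gamma receptor among others, averaged 38.4 ± 5.80 CPM in Tg and 63.0 ± 11.1 CPM in WT and fell by 0.70 (SE 0.10, adjusted p = 5.73e-05), Stat3 fell by 0.23 and the kinase Tyk2 rose by 0.17 on the log2 scale. Of 16 nucleic acid sensors and adaptors only Zbp1, a sensor of Z-form nucleic acid, changed (-1.16, adjusted p = 0.0292), at 0.427 ± 0.283 CPM in Tg and 1.15 ± 0.981 CPM in WT.

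Of 9 other interferon regulatory factors and their cofactors, Irf2bpl (0.45), Irf3 (0.30) and Irf2bp2 (0.30) rose and Irf2, a repressor of interferon responses, fell (-0.37, adjusted p = 0.00249). Of 34 other induced effectors 7 fell, among them Parp12 (-0.44), Samhd1 (-0.27) and Trim30a (-0.54), and Ifit3b rose. Of 22 other genes of MHC class I processing 3 fell, the proteasome activator Psme1 (-0.45, adjusted p = 0.000209), the peptide-trimming Erap1 (-0.31) and the class I heavy chain H2-Q6 (-0.42), and the chaperone Canx rose (0.31). Of 9 MHC class II genes H2-DMa fell (-0.54, adjusted p = 0.0192). Without the 4 adipocyte-rich libraries, which leaves WT female 4 as the only WT female, several of these calls were lost. They were those of Tyk2, Zbp1, Irf2bpl, Parp12, Samhd1, Trim30a, Erap1, H2-Q6 and H2-DMa. Of the pathway genes 10 fell without Tg female 2 or Tg male 4, 8 without WT female 3 and 37 without WT female 4. Over all single omissions 1611 to 2028 of all tested genes fell. Leaving out single libraries ended the call of Tyk2 in 13 of 16 cases, of H2-Q6 in 11, of Stat3 in 9, of Zbp1 in 5 and of Trim30a in 1.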

How the data were processed

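Values deposited by the authors were taken as estimated counts (expected counts) of reads per gene symbol, because none is below 0, some are fractional and library totals differ. The labels name no unit. Per the submitters' processing notes, bcl2fastq, cutadapt 1.2.1, TopHat2, Bowtie2 and build mm10 were used; how reads were assigned to genes, and whether by strand, is not given in the sources used here. A share of 93.53% of the nonzero values lies within 0.01 of a whole number, and all were rounded before testing, which left 8 genes at 0 in all libraries.

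From these counts, trimmed mean of M-values (TMM) factors (0.887 to 1.10) and CPM were computed. After filterByExpr (minimum count 10, minimum total 15) 13666 genes were fitted with 1 mean per group in edgeR 4.0.16 (R 4.3.3, limma 3.58.1) with the robust quasi-likelihood test, and p was adjusted by Benjamini-Hochberg over all of them. All tests are two-sided, and adjusted p values without a named tool come from edgeR. The coefficient of variation between mice was 0.201. Limits from 3 counts cover counting error only. The scripts were tested on simulated data.

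Correlations used log2 CPM (prior count 2) centred on group means, with 100000 permutations within groups in Python 3.11.15 (numpy 2.4.6, pandas 2.3.3, scipy 1.17.1, matplotlib 3.10.9). They were adjusted within each family. Library numbers follow the order of deposition and pair no mice. The labels give 4 mice per sex and genotype, and p-values measure the spread between these mice. Of 24 pairs of libraries within a group, r was 0.955 to 0.992 and the lowest median chi-square per gene 1.19, where repeated sequencing of 1 library gives 0.455, so none was taken for a repeat. The labels name no sequencing batch.

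The members, gene lists and tests were chosen with earlier results of these data known. Every member was accounted for. Of the pathway lists up to 4 called genes with the smallest adjusted p were named, and for each correlation anchor the 4 members with the smallest permutation p. Gene positions and exon lengths come from GENCODE M21 and promoters from RefSeq. Alternatives were DESeq2 1.42.0, its size factors, an additive design, no filter, other centring, and leaving out libraries.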

Additional observations from a re-analysis of the deposited data

Results flagged for a closer look

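In 14 of 156 groups of 4 libraries, belonging to 13 members, a single library stood apart from the other 3 by most of the range of its group. For independent, normally distributed values the cutoff would flag about 1 in 20 groups. CPM values of genes that move together need not follow this, and no rate was computed for these data.

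Tg male 3 was the high library for Gbp3 (5.925 CPM, the others 4.05 to 4.32), Tgtp1 (3.912 CPM, the others 2.29 to 2.39), Mx1 (0.8736 CPM, the others 0.217 to 0.296) and Oasl2 (5.622 CPM, the others 2.65 to 2.97). Tg male 4 was the low library for Gbp6 (2.75 CPM, the others 5.25 to 5.51) and Bst2 (5.058 CPM, the others 6.91 to 7.28), and Tg female 4 for Ifit3 (10.55 CPM, the others 13.65 to 14.13).

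In WT males, library 1 was high for the 3 MHC class I chains. B2m had 200.8 CPM there and 72.6 to 88.9 CPM in the others, H2-K1 145.3 CPM and 75.0 to 85.5 CPM, and H2-D1 193.0 CPM and 83.2 to 97.6 CPM. The same library had 7209 CPM of summed adipocyte markers, and the part of these in the 3 values was not tested. WT male 2 was low for Irf9 (4.859 CPM, the others 6.997 to 7.34).

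In WT females, library 2 was high for Gbp10 (16.56 CPM, the others 2.65 to 4.13), library 3 for Mx1 (2.668 CPM, the others 0.496 to 0.839) and library 1 for Cxcl10 (0.7045 CPM, the others 0.107 to 0.166, or 2 to 3 counts).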

How the results depend on the processing

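No paired analysis was possible because the labels tie no Tg mouse to a WT mouse and library numbers carry no pairing. The setting that moved most results leaves out WT females 1 to 3 and WT male 1, the libraries richest in adipocyte markers. With it the median log2 difference of the members was -0.0452 in the averaged comparison, 0.075 in females and -0.17 in the interaction. The averaged log2 difference changed sign for Gbp2 (0.16), Gbp11 (0.80), Isg15 (0.40), Mx2 (0.16), Oas1a (0.46), Oasl1 (0.28), Rsad2 (0.28), Stat2 (0.0198), Irf1 (0.43), Irf9 (0.0371), Tap1 (0.24), B2m (0.42), H2-K1 (0.50) and H2-D1 (0.52), that in females for Tgtp2 (0.65) and Ifit2 (0.0457), and the interaction for Iigp1 (-0.57) and Ifit2 (-0.18). No correlation with Irf1, Irf7 or any marker list was then called (0). The cause was not tested, beyond the 4 fewer libraries.

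Centred on genotype means only, 7 correlations were called for Irf1, 13 for Irf7, 20 for both and 0 for the endothelial markers. DESeq2 called 1 member higher in females and 1 in the interaction. In the averaged comparison DESeq2 called 2 higher and 11 lower, DESeq2 size factors gave 10 lower, no filter 8 and the additive design 7. Tgtp2 and Bst2 were lost without the filter, and Irf7, Usp18 and Bst2 in the additive design.

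Leaving out single libraries gave 6 to 16 members lower and 2 to 2 higher in the averaged comparison (median -0.46 to -0.27), 6 to 22 lower and 0 to 1 higher in females (-0.81 to -0.48), 4 to 5 lower and 1 to 2 higher in males (-0.22 to -0.01), 0 to 0 in the interaction (0.37 to 0.57), 1 to 4 lower and 0 to 1 higher between the sexes, and 8 to 37 lower and 5 to 9 higher pathway genes. Over all tested genes the same omissions gave 1611 to 2028 lower and 2023 to 2537 higher in the averaged comparison. They gave 674 to 1463 lower and 990 to 1700 higher in females, and 879 to 1306 lower and 972 to 1538 higher in males. Called correlations numbered 0 to 1 for Irf1, 0 to 1 for Irf7, 0 to 2 for both, 0 to 5 for macrophage, 0 to 1 for endothelial, 0 to 1 for T and NK, 0 to 7 for adipocyte markers and 0 to 12 in all. Signs changed for Ifi44 averaged (-0.20 to 0.0039), in males for Usp18 (-0.37 to 0.0664), Ifit2 (-0.40 to 0.0178) and Oasl2 (-0.13 to 0.30), and in the interaction for Cxcl10 (-1.18 to 0.51), Gbp6 (-0.66 to 0.0475) and Tgtp2 (-0.56 to 0.0888). Depth limits Cxcl10, Gbp8, Gbp11, Mx1 and Mx2, which had few counts.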
